A study of Mus musculus with 10 samples.

Results

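The genes described here encode the proteasome and its assembly factors and activators: every probe set whose only annotated symbol starts with Psma, Psmb, Psmc, Psmd, Psme, Psmf or Psmg followed by a digit. The rule found 103 probe sets for 49 genes, of 45101 probe sets and 18194 genes with a symbol of their own on the array. RNA of CD4+ splenocytes was measured in 10 C57Bl/6 mice of 8 to 12 weeks, 1 array per mouse. Of these, 5 mice underwent cecal ligation and puncture (CLP), a surgical model of septic peritonitis, and 5 had sham surgery, with the cecum handled only. All 10 mice had halothane anesthesia, and spleens were taken 6 h after surgery, and the cells came from negative immunomagnetic selection, which the series puts at about 91% CD4+ cells. Each array's source is labelled as a single mouse, and the series states 5 biological replicates a group. The sham titles, however, all carry the replicate number 1, and sham arrays are numbered here by the suffix that follows it. The labels name no genetic modification in either group.

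The proteasome degrades proteins tagged with ubiquitin. Its core particle is a barrel of alpha subunits (Psma genes) and beta subunits (Psmb genes), of which Psmb5, Psmb6 and Psmb7 cut the substrate. Under interferon gamma, cells replace these with Psmb8, Psmb9 and Psmb10, which gives the immunoproteasome, and the activator encoded by Psme1 and Psme2 can cap the barrel. The products include peptides for MHC class I molecules. A regulatory particle of ATPases (Psmc genes) and non-ATPase subunits (Psmd genes) recognises, unfolds and feeds in the tagged proteins. Lymphocytes are known to carry immunoproteasomes even at rest.

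After a filter on dim probe sets, 83 probe sets and 48 genes were tested, each gene by its brightest probe set. Psma8, the testis alpha subunit, was below the filter. The 48 genes comprised 15 of the constitutive core (7 alpha, 8 beta), 4 of the immune group (Psmb8, Psmb9, Psmb10, Psme1), 21 of the regulatory group (7 named Psmc, 14 named Psmd) and 8 others (Psme3, Psme3ip1, Psme4, Psmf1 and Psmg1 to Psmg4). The only probe set for Psme2 carries a second symbol and was therefore no member. The symbol rule also takes in genes that are not subunits: Psmc3ip encodes a recombination factor, Psme3ip1 a protein that binds the Psme3 activator, and Psmd5, Psmd9 and Psmd10 chaperones that help to build the regulatory particle. Psmb11, the thymus beta subunit, lay near the bottom of the scale, at 6.97 ± 0.20 after CLP and 6.87 ± 0.15 after sham surgery (log2 intensity, SD, n = 5 each; the floor was 6.14).

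Array medians were 127.6 to 142.4 intensity units before scaling. The 10 arrays fell into 2 sets by a control probe set for 18S ribosomal RNA: replicates 2 and 4 of each group read 194.3 to 268.4 units, and replicates 1, 3 and 5 of each group read 3134 to 5178. Both groups thus held 2 arrays of low and 3 of high 18S signal, and each comparison below was also made within each set. Summed intensities of markers of other cells overlapped between the groups for CD8 T cells (2 of 2 markers tested), B cells (7 of 8), plasma cells (5 of 6), dendritic cells (3 of 7), monocytes and macrophages (5 of 8), neutrophils (6 of 8), NK cells (4 of 6) and erythroid cells (5 of 8). Siglech, Xcr1, Ccl22, Cd68, Ncr1 and Hba-a1 were below the filter. The widest range was that of neutrophil markers, 2345 to 13988 after CLP and 3879 to 10854 after sham surgery. CLP replicate 1 gave the 13988, and the other CLP arrays lay at 2345 to 4102. That array was also highest in erythroid markers, at 6712, against 1766 to 2955 in the other CLP arrays and 1303 to 2938 after sham surgery. Of the 5 erythroid genes tested, 4 had a higher CLP mean (median difference 0.85). None passed, and 1 (Slc4a1, 1.42) had an unadjusted p under 0.05. NK cell markers summed to 2236 to 2835 after CLP and 2800 to 3690 after sham surgery, where only CLP replicate 4 and sham replicate 5 overlapped; 4 of 4 means were lower after CLP, none passed, and 3 (Klrd1, Nkg7 and Eomes) had an unadjusted p under 0.05. T cell markers (7 of 8 tested) summed to 12752 to 13840 after CLP and 14269 to 17697 after sham surgery, with no overlap and 7 of 7 means lower after CLP, although none passed the test (3 at an unadjusted p under 0.05). Over all genes, 3.65% were higher and 8.19% lower after CLP at an unadjusted p under 0.05. The part of these marker levels in the results below was not tested. Fewer cells of a type and less RNA per cell cannot be told apart in such samples.

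The first question was whether the proteasome genes differed between CLP and sham surgery. None of the 48 passed at an adjusted p under 0.05 (limma, Benjamini-Hochberg over all tested probe sets), and none did under any of 24 alternative settings. Some of these settings add little, since they called few or no genes at all. They called 0 of 13073 genes in either 18S set alone and 1 of 18193 with no filter. Over all 13073 genes tested, 0.199% were called higher and 0.551% lower after CLP. The lowest adjusted p of a member was 0.218, for Psmd5. At an unadjusted p under 0.05, 3 members were higher (Psmd3, Psmf1 and Psmd9, 6.25% of the members, against 3.65% of all genes) and 1 was lower (Psmd5, 2.08%, against 8.19% of all genes). No member lay above or below the sham arrays in all 5 CLP arrays, which 0.849% and 2.28% of all genes did.

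Mean differences were small and mostly above 0. The CLP mean was higher for 34 of 48 genes (70.8%, against 51.2% of all genes), with a median log2 difference of 0.06 against 0.005 over all genes. That count depended most on CLP replicate 2, without which it was 24 of 48 with a median of 0.00. With any other single array left out it was 29 (sham replicate 1) to 37 (CLP replicate 3). In the arrays of high 18S signal alone it was 28 of 48, and in those of low signal alone 34. By group, the median log2 difference was 0.09 in the constitutive core (11 of 15 means higher), 0.11 in the immune group (4 of 4), 0.05 in the regulatory group (14 of 21) and 0.02 among the others (5 of 8). These genes lie in shared complexes and came from the same arrays, so they are not independent counts.

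The precision set what could be seen. The 95% interval of the difference lay within 1.5-fold in either direction for 37 of 48 members (77.1%, against 79.8% of all genes) and within 2-fold for 47 (97.9%, against 97.1%). Psmd4 was the exception at 2-fold. The members' within-group SD had a median of 0.24 on the log2 scale (0.197 over all genes) and ran from 0.064 for Psmb4 to 0.685 for Psmd4. For Psma7, Psmb2, Psmb7, Psmd3, Psmd4, Psmd5, Psmd9, Psmd10, Psmg1, Psmg2 and Psmg3 the interval also took in changes of more than 1.5-fold.

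**Figure D1:**
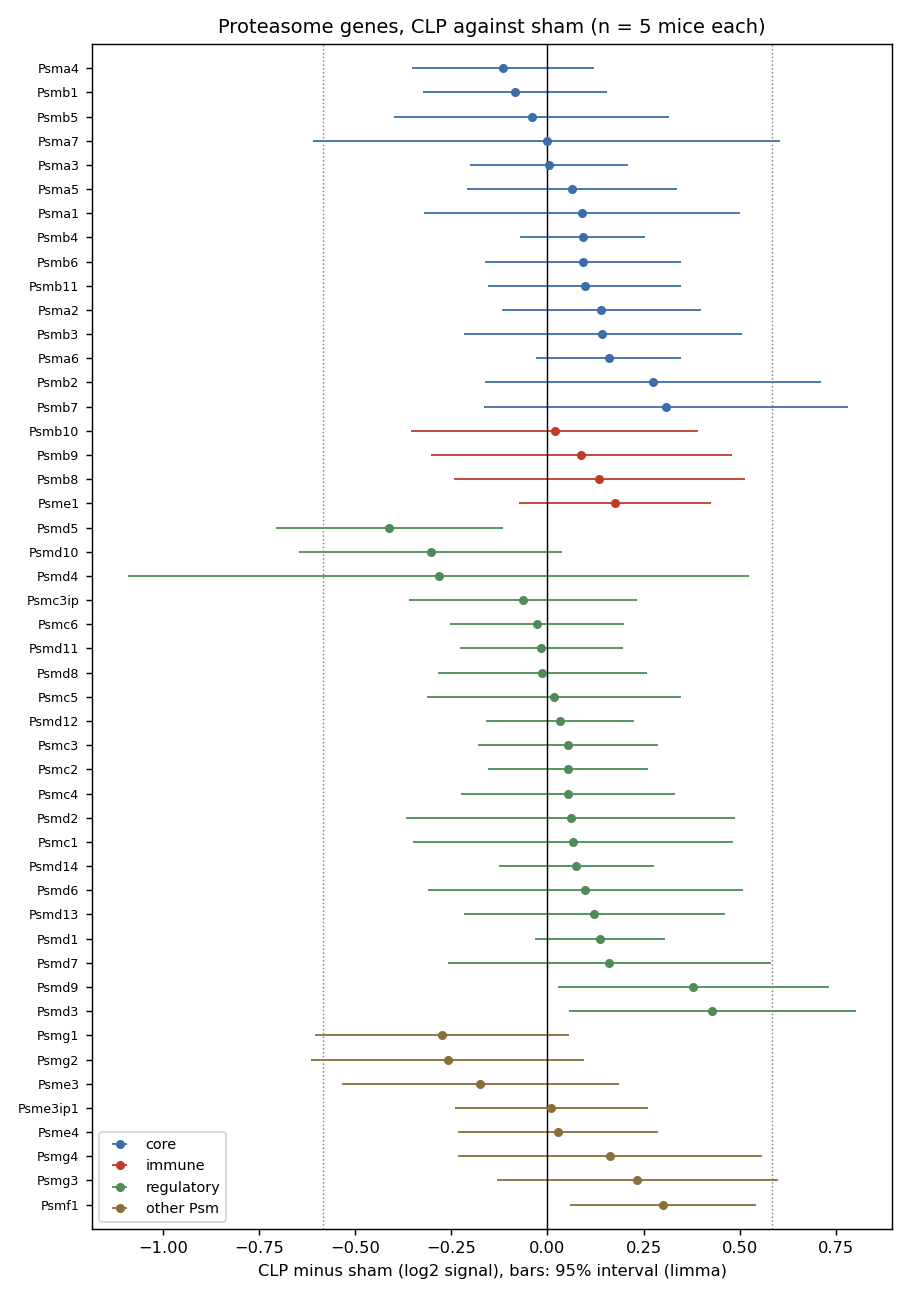
Log2 difference between CLP and sham means (horizontal axis) of the 48 tested genes, ordered by group, with limma's 95% intervals as bars and dotted lines at 1.5-fold in either direction. Points run from -0.41 (Psmd5) to 0.43 (Psmd3); intervals of 11 genes cross a dotted line, and no gene passed the adjusted test.

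The immune group is the part of the proteasome that interferon gamma induces, and its start sites are shown for that reason. The windows run from 250 bases before to 50 bases after the annotated start (RefSeq, GRCm38.p6), and a window was at hand for 41 of the 49 genes. They were searched on both strands for a gamma-activated site, TTCNNNGAA, which is a palindrome, and for an interferon response element, GAAANNGAAA. Capitals mark a match. Psmb8 lies at chr17:34197945-34198244 on the plus strand, with a gamma-activated site whose first base is at position -97 from the start. Psme1 lies at chr14:55578244-55578543 on the plus strand, with an interferon response element on the minus strand from position 9 after the start. Psmb9 lies at chr17:34187281-34187580 on the minus strand and shares 275 bases with the window of Tap1, a peptide transporter gene read in the other direction; neither motif is spelled out in it.
Psmb8: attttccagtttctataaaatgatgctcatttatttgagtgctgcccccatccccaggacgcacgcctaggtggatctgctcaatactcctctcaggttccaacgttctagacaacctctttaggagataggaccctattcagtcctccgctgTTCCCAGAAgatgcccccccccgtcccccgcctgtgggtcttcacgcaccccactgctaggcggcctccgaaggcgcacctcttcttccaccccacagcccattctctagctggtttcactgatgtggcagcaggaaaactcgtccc
Psme1: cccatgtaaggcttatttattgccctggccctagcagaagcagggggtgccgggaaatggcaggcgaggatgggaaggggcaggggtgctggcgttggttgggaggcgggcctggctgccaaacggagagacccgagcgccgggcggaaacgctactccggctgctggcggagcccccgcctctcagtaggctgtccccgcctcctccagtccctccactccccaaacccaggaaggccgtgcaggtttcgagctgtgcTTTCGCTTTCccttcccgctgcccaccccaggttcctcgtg
Psmb9: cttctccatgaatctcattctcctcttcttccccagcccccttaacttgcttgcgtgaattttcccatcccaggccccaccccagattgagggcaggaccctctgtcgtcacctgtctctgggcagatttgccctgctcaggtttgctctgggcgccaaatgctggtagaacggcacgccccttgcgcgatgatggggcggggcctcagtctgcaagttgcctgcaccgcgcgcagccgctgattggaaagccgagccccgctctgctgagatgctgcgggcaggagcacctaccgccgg

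The window of Psmb10 holds neither motif. Over the members with a window, 3 of 41 hold the gamma-activated letters (Psmb8, Psmd2 and Psmg1, 7.32%, against 9.55% of 27025 genes) and 5 of 41 the interferon response letters (Psmb3, Psmd4, Psmd9, Psme1 and Psmg4, 12.2%, against 3.99%). A match is a string of letters and not a measured binding site.

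Psmb8, the subunit that replaces Psmb5, read 9.90, 10.22, 9.74, 9.44 and 9.91 in CLP replicates 1 to 5 and 9.62, 9.28, 10.03, 9.58 and 10.02 in sham replicates 1 to 5 (log2 intensity). The groups overlapped, with the highest array a CLP one and the lowest a sham one. The difference was 0.14 ± 0.17 (SE; 95% interval -0.24 to 0.51; adjusted p 0.907).

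Psmb9, which replaces Psmb6, read 10.59, 10.27, 10.43, 10.28 and 10.74 after CLP and 10.26, 9.87, 10.64, 10.22 and 10.88 after sham surgery. Both the lowest and the highest array were sham arrays. The difference was 0.09 ± 0.18 (SE; interval -0.30 to 0.48).

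Psmb10, which replaces Psmb7, read 10.85, 11.24, 10.63, 11.08 and 10.78 after CLP and 10.41, 10.90, 10.74, 11.19 and 11.25 after sham surgery. Its CLP values lay inside the sham range. The difference was 0.02 ± 0.17 (SE; interval -0.35 to 0.39).

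Psme1, a subunit of the activator cap, read 10.93, 11.01, 10.99, 10.96 and 10.76 after CLP and 10.60, 10.54, 10.90, 10.65 and 11.08 after sham surgery. The highest array was sham replicate 5, above all CLP arrays. The difference was 0.18 ± 0.11 (SE; interval -0.07 to 0.43).

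The mean over the 4 immune genes was 10.54 ± 0.10 after CLP and 10.43 ± 0.27 after sham surgery (log2 intensity, SD, n = 5 each), a difference of 0.105 that is smaller than the sham spread. Per array it was 10.57, 10.69, 10.45, 10.44 and 10.55 after CLP and 10.22, 10.15, 10.58, 10.41 and 10.81 after sham surgery. The sham arrays held both extremes. Within the arrays of low 18S signal the difference was 0.285 and within those of high 18S signal -0.016, where 1 of 4 genes had a higher CLP mean. Whether these within-set values differ was not tested.

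**Figure D2:**
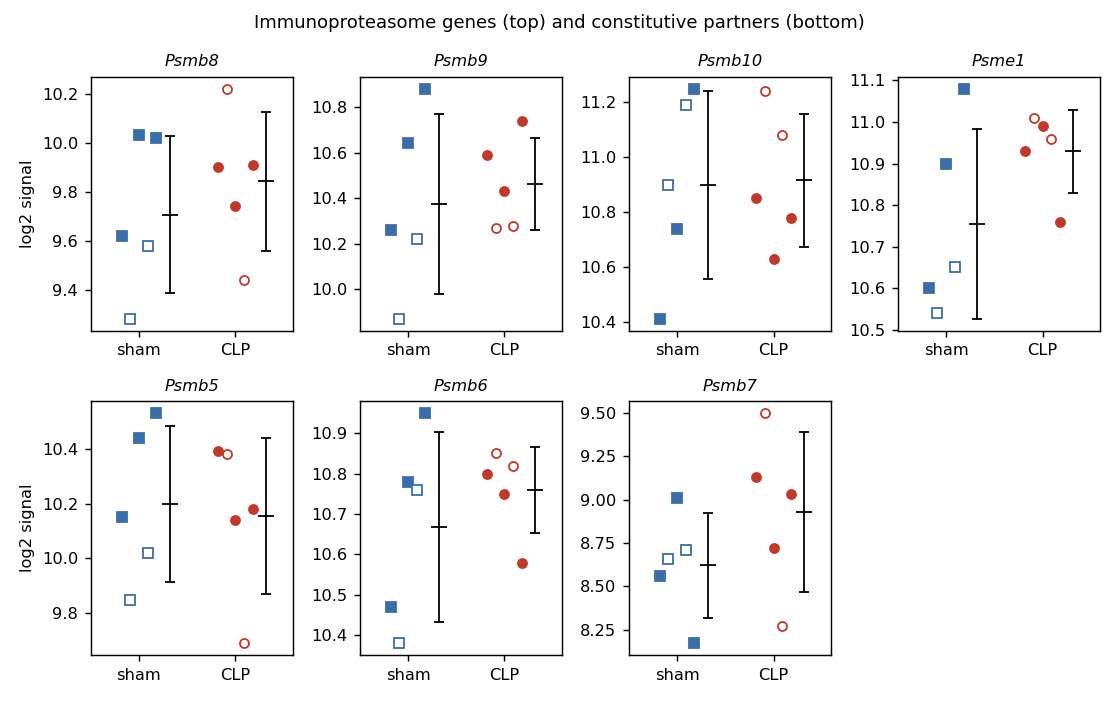
Log2 intensity (vertical axis) of the 4 immune genes and of Psmb5, Psmb6 and Psmb7, the subunits that the immune forms replace, in each array; blue squares are sham and red circles CLP arrays, open symbols mark low and filled symbols high 18S signal, and black bars give the mean ± SD (n = 5). The 2 groups overlap in all panels, and the immune means differ by 0.02 (Psmb10) to 0.18 (Psme1).

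The RNA of each immune subunit was also set against that of the subunit it replaces, as a ratio within an array. These are RNA levels, and the exchange of subunits in the particle itself was not measured. Since the probe sets differ in brightness, only the shift of the ratio between groups can be read, not its level. The log2 ratio of Psmb8 to Psmb5 was -0.50, -0.15, -0.40, -0.25 and -0.28 in CLP replicates 1 to 5 and -0.52, -0.57, -0.41, -0.44 and -0.51 in the sham replicates. In 4 of 5 CLP arrays it was above all sham arrays, and CLP replicate 1 lay among them. The means were -0.32 ± 0.13 and -0.49 ± 0.06 (SD, n = 5 each), a shift of 0.18 (95% interval 0.02 to 0.33). The two-sided exact permutation p was 0.0317 and 0.0952 after adjustment over the 3 pairs, which does not pass 0.05 (the smallest p that 252 arrangements allow is 0.00794). Without CLP replicate 1 the shift was 0.22 and the adjusted exact permutation p 0.0238. That array was the only CLP one among the sham ratios, so leaving it out separates the groups fully. The p is then the smallest possible and adds no support. Of 22 alternatives, this was the only 1 in which the pair passed, but that count does not measure robustness. Other scaling, floors and filters left this ratio almost unchanged, and the adjusted exact permutation p stayed at 0.0952. Either 18S set alone holds too few arrays for this test to pass. Without CLP replicate 2 the shift was 0.135. Within the arrays of low 18S signal the shift was 0.301 and within those of high 18S signal 0.092.

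The ratio of Psmb9 to Psmb6 averaged -0.30 ± 0.30 after CLP and -0.29 ± 0.22 after sham surgery, a shift of -0.005 (interval -0.39 to 0.38; adjusted exact permutation p 0.984). The ratio of Psmb10 to Psmb7 averaged 1.99 ± 0.47 after CLP and 2.28 ± 0.54 after sham surgery, a shift of -0.29 (interval -1.02 to 0.45; adjusted exact permutation p 0.56). The 3 pairs thus gave shifts of different sign, and none passed the adjusted test.

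Among the constitutive catalytic subunits, Psmb5 (chymotrypsin-like activity) averaged 10.16 ± 0.28 after CLP and 10.20 ± 0.28 after sham surgery. Psmb6 (caspase-like activity) averaged 10.76 ± 0.105 and 10.67 ± 0.24. Psmb7 (trypsin-like activity) read 9.13, 9.50, 8.72, 8.27 and 9.03 after CLP and 8.56, 8.66, 9.01, 8.71 and 8.17 after sham surgery, so that each group held both high and low arrays. Its difference of 0.31 ± 0.22 (SE; interval -0.17 to 0.78) was the largest of the 15 core genes.

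None of the structural beta subunits passed the test. Psmb4 had the tightest values of all members, 11.68 to 11.85 after CLP and 11.58 to 11.73 after sham surgery, with a difference of 0.09 ± 0.07 (SE). Psmb1 differed by -0.08 ± 0.11, Psmb3 by 0.14 ± 0.17 and Psmb2 by 0.28 ± 0.20, with an interval that reached 0.71. Over the 8 beta genes the mean was 10.06 ± 0.16 after CLP and 9.95 ± 0.15 after sham surgery (SD, n = 5 each).

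The alpha subunits form the outer rings and the gate of the barrel. Psma6 read 12.10, 12.20, 12.12, 11.94 and 11.90 after CLP and 11.85, 11.84, 11.89, 11.87 and 12.03 after sham surgery. Sham replicate 5 lay among the CLP arrays, and the other 4 sham arrays lay below all CLP arrays. The difference was 0.16 ± 0.09 (SE; interval -0.03 to 0.35; adjusted p 0.582). Psma4 had the lowest difference of the core, -0.12 ± 0.11, and Psma2 differed by 0.14 ± 0.12. Psma3, the brightest alpha gene, averaged 12.26 ± 0.13 and 12.25 ± 0.13. Over the 7 alpha genes the mean was 11.45 ± 0.19 after CLP and 11.41 ± 0.20 after sham surgery (SD, n = 5 each), and over all 15 core genes 10.71 ± 0.13 and 10.63 ± 0.08.

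The ATPases of the regulatory particle, which unfold the substrate and open the gate, had the narrowest range of differences. Psmc1 to Psmc6 differed by -0.03 (Psmc6) to 0.07 (Psmc1), and the recombination factor Psmc3ip by -0.06. The mean over these 7 genes was 9.69 ± 0.14 after CLP and 9.67 ± 0.06 after sham surgery. All 7 intervals lay within 1.5-fold.

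The non-ATPase genes held the widest differences in both directions. Psmd5, a chaperone that binds part of the ATPase ring during assembly, read 9.23, 9.46, 9.28, 8.74 and 9.05 in CLP replicates 1 to 5 and 9.42, 9.60, 9.63, 9.39 and 9.77 in the sham replicates. Only CLP replicate 2 reached into the sham range. The difference was -0.41 ± 0.13 (SE; interval -0.71 to -0.12; unadjusted p 0.0105, adjusted p 0.218), a CLP level 0.752 times that of sham. It was -0.398 in the arrays of low and -0.419 in those of high 18S signal, and the adjusted p was 0.135 with the 18S set as a block.

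Psmd10 (gankyrin), another chaperone of the ATPase ring, read 7.72, 7.88, 7.42, 7.08 and 7.49 after CLP and 7.57, 7.63, 7.95, 7.86 and 8.10 after sham surgery. CLP replicates 1 and 2 lay inside the sham range and the other 3 below it, and the difference was -0.30 ± 0.16 (SE; interval -0.65 to 0.04). Psmd9, the third chaperone of this kind, read 7.56, 8.24, 7.79, 7.46 and 7.51 after CLP and 6.95, 7.53, 7.47, 7.36 and 7.35 after sham surgery. Its difference was 0.38 ± 0.16 (SE; unadjusted p 0.0371, adjusted p 0.4), while its 2 dimmer probe sets gave 0.05 and 0.31. The 3 chaperones of the regulatory particle thus did not share a sign.

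Psmd3, a scaffold subunit of the lid, had the highest difference of all members. It read 9.66, 10.33, 9.38, 9.42 and 9.64 after CLP and 9.28, 9.43, 9.11, 9.42 and 9.05 after sham surgery, with CLP replicate 2 far above the other arrays. The difference was 0.43 ± 0.17 (SE; interval 0.06 to 0.80; unadjusted p 0.0278, adjusted p 0.35), and without CLP replicate 2 it was 0.268.

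Psmd4, a ubiquitin receptor, had the largest spread: 8.70, 10.29, 8.80, 8.41 and 8.52 after CLP and 8.63, 9.80, 8.65, 9.84 and 9.22 after sham surgery. Another probe set for the same gene ran from 8.66 to 9.05 over all arrays, and the dimmest one from 6.83 to 8.40 with the same arrays high, so the probe sets for Psmd4 disagree on its spread. The other subunits named Psmd, which include the deubiquitinase Psmd14 (0.08 ± 0.09) and the large scaffold subunits Psmd1 (0.14 ± 0.08) and Psmd2 (0.06 ± 0.20), differed by -0.02 to 0.16. The mean over the 21 regulatory genes was 9.50 ± 0.21 after CLP and 9.47 ± 0.08 after sham surgery (SD, n = 5 each).

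**Figure D3:**
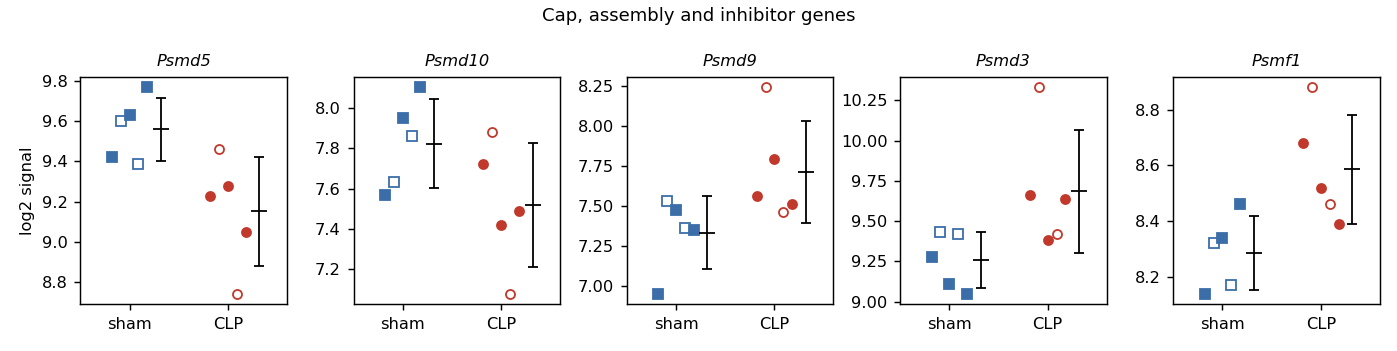
Log2 intensity (vertical axis) of Psmd5, Psmd10, Psmd9, Psmd3 and Psmf1 in each array; blue squares are sham and red circles CLP arrays, open symbols mark low and filled symbols high 18S signal, and black bars give the mean ± SD (n = 5). Psmd5 (-0.41) and Psmd10 (-0.30) have lower CLP means, the other 3 have higher ones (0.30 to 0.43), and the groups overlap in all panels.

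Psmf1, an inhibitor and regulator of the core particle, read 8.68, 8.88, 8.52, 8.46 and 8.39 after CLP and 8.14, 8.32, 8.34, 8.17 and 8.46 after sham surgery. Sham replicate 5 was the one sham array inside the CLP range. The difference was 0.30 ± 0.11 (SE; interval 0.06 to 0.54; unadjusted p 0.0194, adjusted p 0.292), but its other 2 tested probe sets gave -0.14 and -0.15.

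The chaperones that assemble the core particle differed among themselves. Psmg1 and Psmg2, which act as a pair on the alpha ring, had lower CLP means, by -0.27 ± 0.15 and -0.26 ± 0.16. Psmg3 and Psmg4, a second pair, had higher ones, by 0.23 ± 0.17 and 0.16 ± 0.18. None of the 4 passed the test. The alternative activators Psme3 and Psme4 differed by -0.18 ± 0.16 and 0.03 ± 0.12, and Psme3ip1 by 0.01 ± 0.11.

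The probe sets of a gene did not always give the same sign. Of 24 genes with several tested probe sets, 13 had both signs and 11 had one. Of the 83 probe sets, 4 had an unadjusted p under 0.05 and none an adjusted one.

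The members were also compared between the 2 sets of arrays that the 18S signal gave. The sets are balanced over the groups, and their difference was estimated beside that of CLP in one limma fit, a comparison chosen after the data were seen. What the low signal stands for was not tested. The median absolute coefficient over the 48 genes was 0.193 for the 18S set and 0.095 for CLP (0.154 and 0.103 over all genes), and 30 of 48 genes had the larger one for the 18S set, while 18 had it for CLP. The order was the reverse among the beta core genes (0.084 for the 18S set, 0.095 for CLP) and the other Psm genes (0.15 and 0.204). At an adjusted p under 0.05, 4 members were higher in the arrays of low 18S signal (8.33%, against 5.33% of all genes) and 4 were lower (8.33%, against 9.22%).

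By the brightest probe set, the genes higher in the arrays of low 18S signal were Psma7, Psmd6, Psma5 and Psme4. Psma7, an alpha subunit, read 10.67, 10.64, 10.55 and 10.69 in CLP replicates 2 and 4 and sham replicates 2 and 4, and 9.84, 9.77, 9.53, 9.65, 9.87 and 9.71 in CLP replicates 1, 3 and 5 and sham replicates 1, 3 and 5. The sets were apart with no array between 9.87 and 10.55. The coefficient was 0.91 ± 0.09 (SE; 1.88-fold; adjusted p 0.000112), beside a CLP difference of -0.002 ± 0.28, and its second probe set gave 1.03.

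Psmd6, a subunit of the lid, averaged 10.93 in the low and 10.38 in the high set (0.55 ± 0.10; adjusted p 0.0051). Psma5 averaged 11.85 and 11.52 (0.33 ± 0.08; adjusted p 0.0205), and the activator Psme4 10.47 and 10.16 (0.31 ± 0.08; adjusted p 0.0243). Second probe sets of Psma5 and Psmd6 gave 0.38 and 0.75. The other 2 tested probe sets of Psme4 gave 0.36 (adjusted p 0.16) and -0.095 (adjusted p 0.663), so neither passed and their signs differ.

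By the brightest probe set, the genes lower in these arrays were Psmc1, Psmb2, Psmb3 and Psmb9. Psmc1, an ATPase, read 9.30, 9.18, 9.12 and 9.05 in the 4 arrays of low signal and 9.88, 9.79, 9.61, 9.70, 9.79 and 9.77 in the other 6. No arrays overlapped, and the coefficient was -0.59 ± 0.08 (adjusted p 0.000989). Psmb2 gave -0.535 ± 0.13 (adjusted p 0.0195), Psmb3 -0.48 ± 0.09 (adjusted p 0.00552) and the immune subunit Psmb9 -0.43 ± 0.13 (adjusted p 0.0488). The dimmer tested probe set of Psmb3 gave -0.03. In the same limma fit, dimmer probe sets of other genes passed as well. They were those of Psmb1 (-0.80, adjusted p 0.00282), Psmd2 (-0.42, adjusted p 0.00894), Psmd11 (-0.25, adjusted p 0.0489) and Psmg3 (0.54, adjusted p 0.0475). The brightest probe sets of these genes did not pass. In all, 15 member probe sets passed.

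Over all members, 5 genes were higher and 4 lower in every array of low than in every array of high 18S signal, which 4.14% and 7.33% of all genes were. With the 18S set as a block, the CLP comparison called 355 of all genes (2.72%) and no member (4 at an unadjusted p under 0.05), and the lowest adjusted p of a member was again that of Psmd5, 0.135. Read by their brightest probe sets, some subunits of one particle had coefficients of opposite sign. Examples were Psma7 and Psmb3 in the core and Psmd6 and Psmc1 in the regulatory particle. Probe sets of one gene could differ in sign as well, as for Psmd4 (0.83 and -0.19) and Psmd9 (0.21 and -0.39), though these did not pass. The members passed at shares near those of all genes, as given above.

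**Figure D4:**
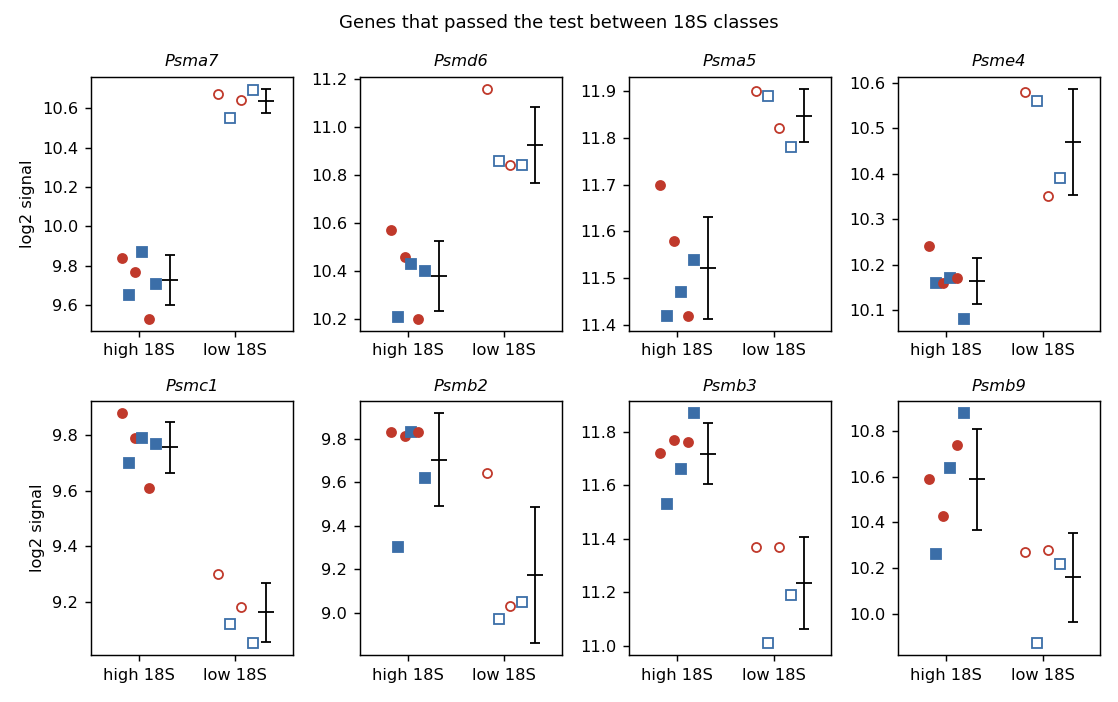
Log2 intensity (vertical axis) of the 8 members whose 18S coefficient passed, in the arrays of low and of high 18S signal; blue squares are sham and red circles CLP arrays, open symbols mark low and filled symbols high signal, and black bars give the mean ± SD of each set (n = 4 and 6). Psma7 has the largest step (0.91) and Psme4 the smallest (0.31) of those higher at low signal, and each set holds sham and CLP arrays.

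Psmd6 and Psmc1, which had opposite coefficients, both carry the letters CCGGAAG of an ETS factor site in their start windows, and these are shown to compare them. Psmd6 lies at chr14:14120896-14121195 on the minus strand, with the match at position -45. Psmc1 lies at chr12:100109952-100110251 on the plus strand, with the match on the minus strand at position -28. Capitals mark the match.
Psmd6: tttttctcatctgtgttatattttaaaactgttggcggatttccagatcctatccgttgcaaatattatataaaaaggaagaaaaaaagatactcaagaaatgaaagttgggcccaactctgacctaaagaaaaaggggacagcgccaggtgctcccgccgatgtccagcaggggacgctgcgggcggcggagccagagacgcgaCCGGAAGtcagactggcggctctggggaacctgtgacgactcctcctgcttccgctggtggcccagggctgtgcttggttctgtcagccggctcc
Psmc1: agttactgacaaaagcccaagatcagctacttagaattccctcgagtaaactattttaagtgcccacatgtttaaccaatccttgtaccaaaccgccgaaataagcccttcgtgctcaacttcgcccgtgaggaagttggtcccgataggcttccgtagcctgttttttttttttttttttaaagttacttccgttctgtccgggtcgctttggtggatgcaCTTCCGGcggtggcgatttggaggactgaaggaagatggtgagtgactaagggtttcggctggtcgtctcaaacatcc

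The ETS letters are in 16 of the 41 member windows (39.0%, against 9.93% of all genes): 10 of 18 in the regulatory group, 5 of 7 among the others, 1 of 12 in the constitutive core and 0 of 4 in the immune group. The letters TGACNNNGC of the antioxidant response element, to which the proteasome's known regulator NRF1 binds, are in 6 of 41 (14.6%, against 14.0%): Psmb5, Psmb6, Psmc6, Psmd9, Psmd12 and Psme4. The motifs were chosen after the values had been seen, and no binding was measured here.

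Genes around the proteasome were read from lists. Beside the unadjusted counts below, 3.65% of all genes were higher and 8.19% lower at an unadjusted p under 0.05. Of the genes that supply and charge ubiquitin, 8 of 15 were tested and none passed (2 at an unadjusted p under 0.05). The lowest p was that of Uba6, a ubiquitin-activating enzyme (-0.56; adjusted p 0.148), and the conjugating enzymes Ube2d3 and Ube2d1 differed by 0.36 and -0.42. With the mean over a gene's probe sets Uba6 gave -0.339 and Ube2d3 -0.089. Of assembly factors and regulators without a Psm name, 13 of 19 were tested and none passed (3 unadjusted), with a median difference of -0.075. Zfand5, a protein known to stimulate the proteasome, read 10.74, 10.04, 10.19, 9.81 and 10.21 after CLP and 10.79, 10.77, 10.99, 10.71 and 10.71 after sham surgery. CLP replicate 1 was the only CLP array inside the sham range. The difference was -0.60 (adjusted p 0.107, and 0.0383 with the 18S set as a block), while the mean over its probe sets gave 0.087. Ngly1, the deglycosylase that activates NRF1, differed by -0.41, and the ubiquitin ligase Ube3c by -0.26 (-0.089 with the mean over its probe sets). Of the genes for substrate delivery and the VCP segregase, 15 of 18 were tested and none passed (1 unadjusted). The shuttle Ubqln1 differed by -0.26 (-0.081 with the mean over its probe sets), and the VCP cofactors Ubxn7 and Ubxn1 by -0.31 and 0.23.

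Of the MHC class I genes that load the proteasome's peptides, 15 of 15 were tested and none passed (3 unadjusted), with 10 means higher after CLP and a median of 0.05. Tap1, the transporter whose start window overlaps that of Psmb9, read 10.92, 10.80, 11.03, 10.56 and 11.23 after CLP and 10.51, 10.20, 10.68, 10.28 and 10.99 after sham surgery (difference 0.38; adjusted p 0.431). Tapbp, which bridges Tap1 and the class I molecule, also differed by 0.38 (0.193 with the mean over its probe sets), and the peptidase Ide by -0.30.

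Interferon gamma signalling induces the immune subunits, so its genes were set beside them. Of 17 genes, 14 were tested, 13 had a higher CLP mean, the median difference was 0.28, and 1 rose, against 51.2% of all genes with a higher mean and 0.199% called higher. At an unadjusted p under 0.05 there were 7 of 14, beside 3.65% of all genes higher and 8.19% lower. The one gene with a lower mean was Irf2, a transcription factor of the interferon response (-0.62; unadjusted p 0.0121, adjusted p 0.234). The gene that rose was Iigp1, an interferon-inducible GTPase, at 10.79, 10.18, 10.74, 11.18 and 10.80 after CLP and 9.65, 9.32, 9.79, 9.47 and 10.29 after sham surgery. CLP replicate 2 lay below sham replicate 5, and the other 4 CLP arrays lay above all sham arrays. The difference was 1.03 ± 0.21 (SE; adjusted p 0.0489), and the call was lost in 14 of 24 alternatives. Ifngr1, a chain of the receptor, read 10.90, 11.81, 11.78, 10.91 and 11.46 after CLP and 10.35 to 10.70 after sham surgery, with no overlap, but did not pass (0.85; adjusted p 0.0676, and 0.0389 with the 18S set as a block). The GTPase Irgm1 differed by 0.41. The immune subunits had differences of 0.02 to 0.18 and groups that overlapped. Part of the interferon gamma list was as small: Jak1, Irf1, Jak2, Ciita and Irf9 differed by 0.01 to 0.11. Stat2, Ifngr2, Igtp, Irf8 and Gbp2 differed by 0.21 to 0.53. Without CLP replicate 1, Uba6, Zfand5 and Ifngr1 passed the test (adjusted p 0.0222, 0.00938 and 0.0224), and Ifngr1 also passed without CLP replicate 4 and with array weights. Whether the lists differ from the subunits was not tested.

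**Figure D5:**
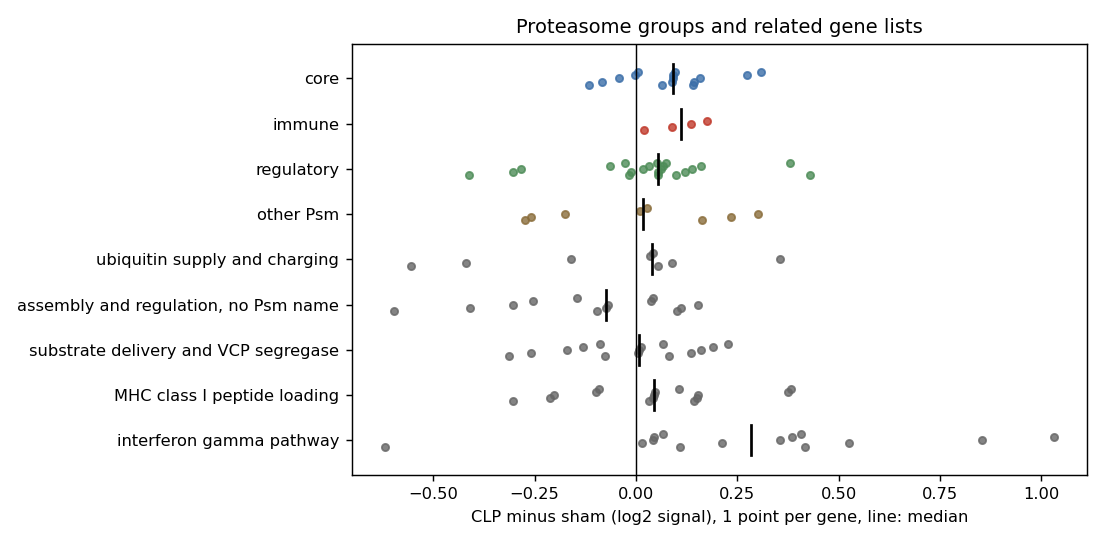
Log2 difference between CLP and sham means (horizontal axis) for each tested gene of the 4 proteasome groups and of the 5 related lists (rows), 1 point per gene, with a bar at each median. Medians run from -0.075 (assembly and regulation) to 0.11 (immune subunits) except in the interferon gamma list, at 0.28, which holds the only gene that passed the test, Iigp1 at 1.03.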

How the data were processed

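RNA of CD4+ splenocytes from 10 mice was hybridised to Affymetrix mouse arrays after 2 rounds of amplification, per the labels' protocols, which favours the 3 prime ends of transcripts. The deposited values are linear intensities of 45101 probe sets from 0 to 20290, 29 of them 0; their software, background correction and scaling were not given in the sources used here. All arrays were brought to the same median, raised to a floor at the 25th percentile (70.4) and put on the log2 scale, so differences of dim probe sets are understated. The 64 control probe sets and those under the 40th percentile of mean log2 intensity (6.71) were removed, which left 27022. limma 3.58.1 in R 4.3.3 (lmFit, eBayes) compared the groups, with Benjamini-Hochberg adjustment over all 27022 and a threshold of 0.05. The number of arrays limits the precision. A gene was read from its brightest tested probe set. Symbols come from the platform annotation, which can be old: 34945 probe sets had 1 symbol, 932 several and 9160 none, and all 103 members matched a RefSeq gene of the same symbol. Subunit ratios were compared by an exact permutation test. The arrays of low 18S signal are those under 1000 intensity units in one 18S control probe set.

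The rule for named genes took the immune group, its 3 constitutive partners, any member that passed, the 4 members with the lowest p among the alpha, beta, Psmc, Psmd and other genes, and the 3 genes with the lowest p of each related list; other members were named after their values were seen. Members, lists and naming rules were chosen with earlier results of these data known. Arrays of the same replicate number in the 2 groups share their 18S set. Their deviations from the group means correlated by over 0.1 for 4 of 5 numbers (0.18, 0.58, 0.38 and 0.18) and by 0.063 for replicate 5. Only CLP replicate 2 correlated best with the sham array of its own number. CLP replicates 1, 3, 4 and 5 correlated best with sham replicates 5, 5, 2 and 1. No label says that a number marks a shared day or litter, so the number was used as a block only as an alternative. Other alternatives changed the scaling, floor, filter, variance model, array weights, probe set choice, 18S set and the arrays used. The limma fit of CLP against sham was tested on simulated data with known changes. Start-site windows are RefSeq's for GRCm38.p6.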

Additional observations from a re-analysis of the deposited data

Results flagged for a closer look

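In 8 of 96 groups of 5 arrays (8.33%) 1 array stood apart from the other 4 by more than Dixon's 95% limit, where chance gives about 1 in 20. Of these, 4 were CLP and 4 sham groups. All values here are log2 intensities or their ratios, and no explanation was tested.

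Among the subunits, Psma6 was 12.03 in sham replicate 5 (next 11.89), Psma4 was 11.70 in sham replicate 4 (next 11.34), and Psmb2 was 9.03 in CLP replicate 4 (next 9.64). The assembly chaperone Psmg3 was 9.43 in CLP replicate 5 (next 9.10). The mean over the 21 regulatory genes was 9.34 in sham replicate 1 (next 9.48). The ratio of Psmb10 to Psmb7 was 2.82 in CLP replicate 4 (next 1.91), the array in which Psmb7 was lowest among the CLP arrays. In the related lists, Ube2d3 was 11.75 in sham replicate 1 (next 11.85) and Ubxn1 was 9.66 in CLP replicate 4 (next 9.91).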

How the results depend on the processing

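No proteasome gene was called by limma in any of 24 alternatives (lowest adjusted p 0.135 to 0.644 by setting), beside 4 at an unadjusted p under 0.05 in the reported fit. Over the alternatives, the difference of the group means was 0.03 to 0.114 for the core and -0.016 to 0.285 for the immune genes. It was -0.053 to 0.074 for the regulatory and -0.047 to 0.051 for the other genes. Only the core kept its sign throughout. Of 41 named genes, 31 never changed sign, 18 of the 26 members among them. What 5 arrays a group could show differs by gene, since the within-group SD ran from 0.064 (Psmb4) to 0.685 (Psmd4).

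Over all genes, 26 were called higher and 72 lower after CLP. With no filter on dim probe sets the counts were 0 and 1, with array weights 80 and 167, with the 18S set as a block 88 and 267, and in the arrays of low or of high 18S signal alone 0 and 0, where fewer arrays were used. Leaving out 1 array gave 0 to 69 higher and 2 to 177 lower. With the replicate block the counts were 44 and 75 and no member was called. The correlation of same-numbered arrays was over 0.1 for 4 of 5 numbers, but only CLP replicate 2 matched its own number best. Where not stated, the cause of a change was not tested.

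The ratio of Psmb8 to Psmb5 shifted by 0.135 to 0.221 with 1 array left out, by 0.301 in the arrays of low and by 0.092 in those of high 18S signal. That of Psmb9 to Psmb6 shifted by -0.119 to 0.065, and by 0.012 in the arrays of high 18S signal alone. Signs turned for Psmb10 (-0.038) and Psmb5 (0.001) with array weights. With the mean over a gene's probe sets they turned for Psmc3ip (0.021), Ube2d3 (-0.089) and Zfand5 (0.087). In the arrays of low 18S signal alone Psmb5 was 0.099. In those of high signal alone Psmb10 was -0.045, Psmb9 -0.007, Psmb8 -0.042, Psmc3 -0.035, Psmc4 -0.061, Psmb6 -0.019 and Psmc3ip 0.00. With 1 array left out, differences spanned -0.102 to 0.107 for Psmb10, -0.039 to 0.215 for Psmb9, -0.00 to 0.128 for Psmc3, -0.127 to 0.027 for Psmc3ip, -0.023 to 0.135 for Psmc4 and -0.128 to 0.075 for Psmb5.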
